A study of Mus musculus with 10 samples.

Results

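Mature sperm and whole testes of saline-injected control mice were compared gene by gene for their messenger RNAs. The comparison used 5 of the 10 RNA-seq samples of the series, which are the control sperm pools 2, 3 and 4 and the control testes samples 1 and 2. Members were chosen by sample title. Sperm pool 1, which the study set aside for a low correlation with the other pools, was kept out of every main value and is shown only as a check. By the labels, the mice were C57BL/6 (C57BL/6J in the study's text) of 3 to 5 months, with no engineered allele in the labels, and belonged to an arm of 50 animals that received saline (0.9% NaCl) once into the peritoneum and were killed on day 35. The study's text gives a younger age range and more control mice than the labels do. The other arm of the series received cadmium chloride and enters here only as a second, separate pair of sperm and testes. Each sperm sample was a pool of mice, collected by swim-out from the vas deferens and cauda epididymis and treated with a somatic cell lysis buffer. The testes samples held every cell type of the organ. By the study's text they came from the same mice as the sperm, but which mice of which pool went into which testes sample is not given. In bulk samples of this kind, fewer cells of a type and less RNA per cell cannot be told apart.

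Sperm are made in the testis from spermatogonia, which divide, pass through meiosis as spermatocytes and are reshaped as spermatids. During that reshaping, histones are replaced by transition proteins and then by protamines, the acrosome and the flagellum are built, and transcription stops. Messenger RNAs made earlier are stored by RNA-binding proteins and translated late, and most of the cytoplasm is shed before sperm leave the testis. Mature sperm are transcriptionally silent, and their remaining RNA is largely fragmented.

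The deposited expected counts summed to between 366455 and 1058017 per sperm pool and to 2866856 and 2606086 in testes samples 1 and 2. Most of these counts lay on non-coding transcripts. Known protein-coding transcripts took 9.76% ± 0.818 (SD, n = 3) of the counts in sperm and 11.7% ± 0.570 (SD, n = 2) in testes, a difference of -1.89 percentage points whose exact two-sided permutation p was 0.2. That is the smallest p that 3 samples against 2 allow. The coding depth behind every gene value was therefore low, at 100027, 33511 and 54337 counts in sperm pools 2, 3 and 4, and at 322625 and 314273 counts in the testes samples. Levels are given in CPM, a gene's counts scaled to 1000000 coding counts per sample. A total of 3 counts over the group corresponded to 16.0 CPM in sperm and 4.71 CPM in testes. On CPM, sperm pools 2 to 4 correlated with each other at Pearson r of 0.971 to 0.989 across 16063 genes, the testes samples at 0.973, and sperm with testes at 0.372 to 0.468. These correlations are across genes, which are not independent replicates, and rest mostly on the highest genes. Sperm pool 1 correlated with the other pools at 0.984 to 0.992 on this scale. On log2(CPM + 1), sperm pools 2 to 4 correlated with each other only at 0.500 to 0.639, and the testes samples at 0.804. Sperm with testes gave 0.369 to 0.553 there. Sperm pool 2 correlated more with testes samples 1 and 2 (0.553 and 0.538) than with sperm pool 3 (0.500).

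The labelled cell types were checked against their markers. Of 10 sperm and spermatid markers, 8, 3 and 5 were above 0 in sperm pools 2, 3 and 4, and 10 and 9 in the testes samples. Their summed level was 2329 to 3849 CPM in sperm and 2029 to 2729 CPM in testes, in sperm most of it Prm2 and Tssk6, and Odf1, a major protein of the outer dense fibres, was at 0 in all 3 pools. Of 10 spermatocyte markers, at most 1 was above 0 in a sperm pool and 7 or 8 in testes, where their summed level was still only 208 to 293 CPM, and Sycp1, Sycp3 and Ddx4 were at 0 in every sperm pool. All 8 endothelial markers were at 0 in the 3 sperm pools. The 10 leukocyte markers summed to 40.0, 0 and 73.6 CPM in sperm pools 2, 3 and 4, or 4, 0 and 4 counts, and to 58.9 and 31.8 CPM in testes. The 6 red cell markers held 1, 0 and 0 counts. The 17 epididymal markers summed to 70.0 to 269 CPM in sperm and 146 to 232 CPM in testes, with Crisp1, Lcn5, Lcn8 and Gpx5 at 0 in every sperm pool. The Sertoli markers summed to 40.0, 0 and 36.8 CPM in sperm and 80.6 and 77.7 CPM in testes, and the peritubular and smooth muscle markers to 80.0, 209 and 18.4 CPM in sperm and 226 and 204 CPM in testes. The Leydig markers stood at 170, 1194 and 110 CPM in sperm, nearly all of it Star, and at 580 and 544 CPM in testes. In sperm pool 3 the Leydig and epididymal markers were above both testes samples, and in sperm pool 4 the leukocyte markers were, each on 40 counts or fewer.

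Testes showed more genes than sperm at equal depth, and sperm put more of its coding counts on a few genes. Protein-coding genes above 0 numbered 6733, 1552 and 3316 in sperm pools 2, 3 and 4, and 12250 and 11537 in the testes samples. When every sample was thinned at random to 33512 coding counts, these numbers became 4657, 1546 and 3091 in sperm and 5975 and 5413 in testes. The groups did not overlap, the mean difference was -2596 genes, and the exact two-sided permutation p was 0.2, the smallest possible. With at least 3 counts asked for, the numbers were 1928, 1345 and 1944 in sperm and 2243 and 1963 in testes, so that the gap of -364 genes was much smaller and testes sample 2 lay just above the highest sperm pool. Sperm pool 3 stood apart, with about as many genes before thinning as after it. The 10 highest genes of a sample held 28.4% ± 4.42 (SD, n = 3) of coding counts in sperm and 12.7% ± 1.08 (SD, n = 2) in testes (exact permutation p = 0.2). Reaching 50% of the coding counts took 161, 83 and 96 genes in sperm pools 2, 3 and 4, and 279 and 191 genes in testes. Of the 14430 genes above 0 in any of the 5 samples, 7361 were seen in sperm, 1079 of them in all 3 pools, 523 were seen in sperm alone and 7069 in testes alone.

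**Figure D1:**
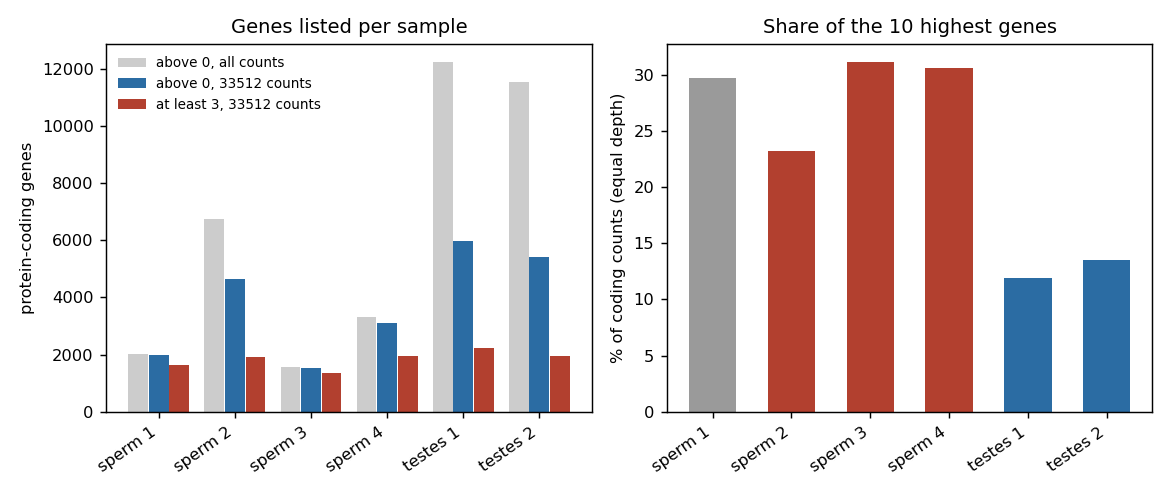
Left, number of protein-coding genes listed in each control sample, with all counts (grey), after thinning to 33512 coding counts (blue) and with at least 3 counts after thinning (red). Right, percent of coding counts on the 10 highest genes after thinning, with sperm in red, testes in blue and sperm pool 1, which was not used, in grey. Sperm pools reached 1546 to 4657 genes against 5413 and 5975 in testes, and sperm pool 3 was the poorest.

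Sperm and testes differed in 316 of 1976 genes tested, with 89 genes higher and 227 lower in sperm. A call asked for over 2-fold change and an adjusted p below 0.05 in edgeR's quasi-likelihood test. The called share was 16.0% of the genes tested, of which 4.50% were higher and 11.5% lower. The median log2 fold change of all tested genes was -0.75 with the main scaling, -1.16 with the size factors of DESeq2 and -0.41 with total library size, so each change below should be read against that shift. With total library size, the split of calls moved to 244 higher and 363 lower. Of the lower calls, 54 were at 0 in all 3 sperm pools and 6 of the higher calls were at 0 in both testes samples, for which the fitted fold has no fixed size and a lower bound is given instead. The filter asked for the same CPM level in at least 2 samples. A testes sample, with more coding counts, therefore needed more counts of a gene than a sperm pool did. A gene scarce in 1 tissue passed the filter only through the tissue where it was high, so only a call in that direction was possible. Akap4, with 23 and 29 counts in testes and 0, 1 and 0 in sperm, was not tested. Actb, with 17 and 22 counts in testes and 23, 2 and 11 in sperm, was tested.

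Leaving out any 1 of the 5 samples moved the number of calls by more than 1.5 times. Of the genes tested, 940 were at 0 in sperm pool 3, against 89 in sperm pool 2 and 376 in sperm pool 4. Without sperm pool 3, 1455 of 3096 genes were called (47.0%), with 637 higher (20.6%) and 818 lower (26.4%), and 315 of the 316 genes were among them. Without sperm pool 4, edgeR called 0 genes although 772 of 2818 had an unadjusted p under 0.05. The calls numbered 837 without sperm pool 2, 136 without testes sample 1 and 116 without testes sample 2. Those of the 316 genes that were tested under another setting all kept their direction there. For 315 of the 316, however, the sperm and testes samples did not overlap. Refits of mostly the same samples could therefore hardly turn their sign. In sperm pool 1, which the main fit did not use, 81 of the 89 genes called higher lay above both testes samples and 218 of the 227 called lower lay below both. Of those 227, 143 were at 0 in sperm pool 1, where only 2025 coding genes were above 0. Among all genes tested, 23.0% had sperm pools 2, 3 and 4 all above both testes samples and 35.2% had all of them below. No such share of all genes tested is given for sperm pool 1, so its counts have no background to be read against.

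**Figure D2:**
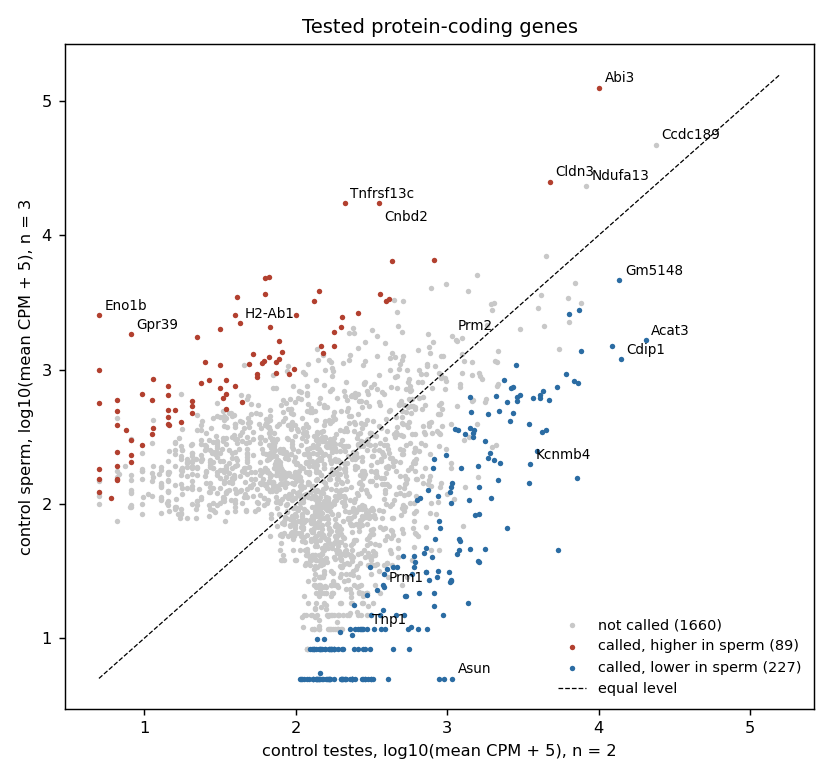
Mean level in control sperm (n = 3) against control testes (n = 2), each as log10(CPM + 5), for the 1976 genes tested. Red points are the 89 genes called higher in sperm, blue points the 227 called lower and grey points the rest. Abi3 is the highest gene in sperm, and the row of blue points along the bottom holds genes at 0 in all 3 sperm pools.

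Many of the genes that carried the counts lie over a gene of the opposite strand, and this bears on what a gene's value means. By RefSeq coordinates (GRCm38.p6), 31.3% of genes whose overlap status was known (3806 of 12175) were overlapped by an annotated gene on the other strand. Genes with no strand were left out of these shares. So were genes with no known opposite-strand partner where an overlapping gene had no strand. The share was 51.0% of the genes tested, 36.9% of those called higher in sperm (95% Wilson interval 26.2 to 49.1) and 63.9% of those called lower (56.2 to 71.0). Among the 50 genes of most counts it was 84.4% and 88.2% in the testes samples and 54.1%, 69.4% and 57.1% in sperm pools 2, 3 and 4. Which strand the counted reads came from was not tested, since the files hold no reads. When the fit was restricted to the 725 tested genes with no such partner, 75 were called (10.3%), 15 higher and 60 lower.

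Pairs of overlapping genes showed how uneven the values were, and those named here were chosen after their values were seen. FPKM, which is scaled to transcript length, lets genes be compared. Ndufa13, a subunit of mitochondrial complex I on the minus strand (chr8:69894163-69902558), had a mean of 1884 FPKM in sperm and 804 FPKM in testes. Tssk6, a testis-specific kinase on the plus strand whose span (chr8:69902184-69903518) runs into it, had 76.7 and 7.56 FPKM. Cdip1 reached 421 FPKM in testes beside 9.01 FPKM for Hmox2, the constitutive heme oxygenase on the other strand. Trmt112, a methyltransferase cofactor, reached 321 FPKM in testes beside 1.18 FPKM for Prdx5, a peroxiredoxin. In these 3 pairs the same gene had the higher FPKM in both tissues. Cnbd2 and Scand1, whose spans overlap, went the other way, with 920 FPKM for Cnbd2 and 43.3 FPKM for Scand1 in sperm, and 22.5 and 130 FPKM in testes.

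**Figure D3:**
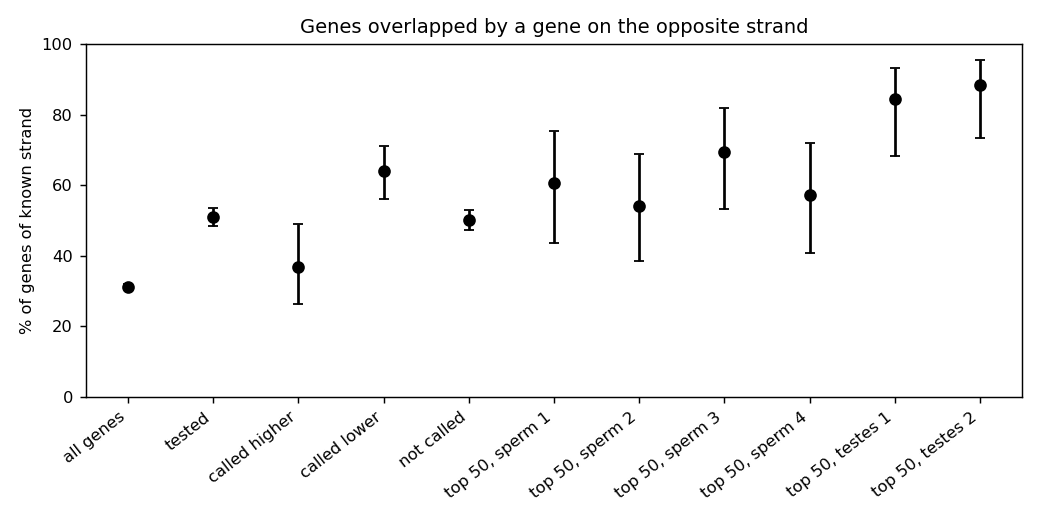
Percent of genes of known overlap status (known strand on the axis) that an annotated gene on the opposite strand overlaps, with 95% Wilson intervals. Values are for all genes, for the sets of the comparison and for the 50 genes of most coding counts in each sample. The testes samples, at 84.4% and 88.2%, lie far above the 31.3% of all genes.

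The leading coding genes of sperm were high in every pool. They were chosen for high mean FPKM in these same pools, which favours calls higher in sperm. Abi3, an adaptor of the actin-regulating WAVE complex, stood at 101253, 135359 and 141523 CPM in sperm pools 2, 3 and 4 and at 10418 and 9788 CPM in the testes samples. The mean of the sperm pools was 12.5 times that of testes, with all pools far above both testes samples. Its log2 fold change was 3.00 (SE 0.41, adjusted p = 0.0089, edgeR). Tnfrsf13c, the receptor for the B-cell survival factor BAFF, stood at 18495, 13488 and 20226 CPM in sperm and at 260 and 153 CPM in testes, a log2 fold change of 5.86 (SE 0.74, adjusted p = 0.0089). No annotated gene lies opposite Tnfrsf13c. Cnbd2, a cyclic-nucleotide binding protein needed for sperm formation in mice, stood at 17403, 20764 and 14340 CPM in sperm and at 215 and 486 CPM in testes, a log2 fold change of 5.00 (SE 0.66, adjusted p = 0.0089). The strand of Abi3 and Cnbd2 was not in the table used, and their spans overlap Phospho1 and Scand1.

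Of the other leading sperm genes, some passed the test and some did not. Cldn3, a tight-junction claudin, was at 21614, 25424 and 28286 CPM in sperm and 4234 and 5342 CPM in testes, and its log2 fold change of 1.77 passed (SE 0.47, adjusted p = 0.042). Gfy, a Golgi protein of olfactory neurons, rose by a log2 fold change of 2.50 (SE 0.67, adjusted p = 0.043) and Prr3, a zinc-finger protein, by 4.14 (SE 0.76, adjusted p = 0.018). Ccdc189, a ciliary protein of the sperm flagellum, was high in both tissues, at 28062, 63293 and 50039 CPM in sperm and 24772 and 22786 CPM in testes. The sperm pools lay above testes for Ccdc189, but the log2 fold change of 0.25 did not pass (SE 0.34, adjusted p = 0.61) and its sign turned with the scaling, to -0.076 with DESeq2 size factors. Ndufa13 likewise had a log2 fold change of 0.82 (adjusted p = 0.17) that passed without sperm pool 3 (1.36, adjusted p = 0.0045), and so did Fbl, the ribosomal RNA methyltransferase fibrillarin, with 1.10 (adjusted p = 0.19) and 1.81 (adjusted p = 8.2e-05).

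Of the 10 leading genes of testes, 5 were called lower in sperm and 1, Cldn3, higher, where 11.5% and 4.50% of all genes tested were. These genes were chosen for high FPKM in the same testes samples, which favours calls lower in sperm. Ccdc189 and Ndufa13, given above, and Cd72 and Eno1 did not pass. Acat3, a cytosolic acetoacetyl-CoA thiolase, stood at 18601 and 22226 CPM in testes and at 1240, 2417 and 1307 CPM in sperm. Its log2 fold change was -4.36 (SE 0.41, adjusted p = 0.0078). Its span overlaps Tcp1, a subunit of the chaperonin that folds actin and tubulin, at 34.8 FPKM in testes against 1224 FPKM for Acat3. Cdip1, a pro-apoptotic membrane protein, stood at 13111 and 14774 CPM in testes and at 1250, 1671 and 644 CPM in sperm, a log2 fold change of -4.22 (SE 0.53, adjusted p = 0.0089). Kcnmb4, a regulatory subunit of BK potassium channels, fell by 4.62 (SE 1.08, adjusted p = 0.035), and was at 170, 0 and 405 CPM in sperm against 3282 and 3777 CPM in testes. Of the predicted genes, Gm5148 fell by 2.17 (adjusted p = 0.033) and Gm3435 fell by 3.43 (adjusted p = 0.039), and both have a lncRNA opposite to them. Cd72, a B-cell co-receptor that overlaps the testis kinase Tesk1, did not pass, with groups that overlapped and a log2 fold change of -0.72 (adjusted p = 0.41).

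The largest rises in sperm were of genes at or near 0 in testes. They passed the filter only through the sperm pools, so only a rise could be called. Rnpepl1, an aminopeptidase-like protein, had 72, 25 and 81 counts in sperm pools 2, 3 and 4 and none in testes, which is at least 210-fold higher. Hcar1, the lactate receptor, had 52, 12 and 44 counts and none in testes, at least 119-fold higher. Gpr39, a zinc-sensing receptor, had 107, 101 and 77 counts against 0 and 2, a log2 fold change of 8.08 (SE 1.10, adjusted p = 0.0089). All these pools lay far above testes. Ntrk3, the neurotrophin-3 receptor, rose by a log2 fold change of 7.22 (adjusted p = 0.022) and Emx2, a homeobox gene of urogenital development, by 6.94 (adjusted p = 0.032). Lrfn3, a synaptic adhesion protein, rose by 6.37 (adjusted p = 0.020), Sigirr, an inhibitory member of the interleukin-1 receptor family, by 6.15 (adjusted p = 0.014), Sytl3, a vesicle-docking protein, by 6.08 (adjusted p = 0.012) and Proser1 by 7.15 (adjusted p = 0.023). Of these, Hcar1, Emx2, Lrfn3 and Proser1 have no annotated gene opposite to them. Each also rose in the cadmium pair of sperm and testes, with log2 fold changes there of 6.03 or more.

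The gene of the largest rise has a near-identical copy, and the copies moved in opposite directions. Eno1b, an intronless copy of the glycolytic enzyme enolase 1, stood at 1301, 4267 and 2014 CPM in sperm pools 2, 3 and 4 and at 0 in both testes samples, at least 537-fold higher. Eno1 itself stood at 2718, 0 and 1502 CPM in sperm and at 4303 and 6641 CPM in testes, with a log2 fold change of -2.22 that did not pass (adjusted p = 0.26). Where 1 of the copies was low, the other was high. Their sum was 4019, 4267 and 3515 CPM in sperm, a mean of 3934 ± 383 (SD, n = 3), and 4303 and 6641 CPM in testes, a mean of 5472 ± 1653 (SD, n = 2). The sum in testes sample 1 lay close to that of sperm pool 3. How the counting shared reads between the copies was not tested, so the values of each are uncertain.

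The largest falls were genes at 0 in all 3 sperm pools, and their bounds were between 17.6-fold and 67.4-fold. They passed the filter only through the testes samples, so only a fall could be called. Asun, a subunit of the Integrator complex, had 343 and 342 counts in the testes samples, at least 67.4-fold lower in sperm. Prss57, a neutrophil serine protease, had 275 and 331 counts, at least 59.7-fold lower. Mina, a ribosomal oxygenase, had 199 and 356 counts, at least 54.8-fold lower. These 3 stood apart from the other falls, whose bounds were smaller because their testes levels were. Usp14, a deubiquitinase of the proteasome, was at least 25.3-fold lower, Gnpnat1, an enzyme of hexosamine synthesis, at least 19.8-fold, AI464131 at least 19.3-fold, Adam1b, a fertilin-related ADAM protein, at least 19.3-fold, Erich3 at least 18.5-fold, Anln, the cytokinesis protein anillin, at least 17.7-fold and Gm7120 at least 17.6-fold. Sperm pool 1 was not at 0 for all of them, with 189 CPM of Asun, 118 CPM of Gm7120 and 23.6 CPM of AI464131, all below testes. For Adam1b, sperm pool 1 stood at 536 CPM, above the 314 and 301 CPM of the testes samples and so against the call. In the cadmium pair all of them fell too, with log2 fold changes from -1.86 for Adam1b to -5.09 for Prss57.

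**Figure D4:**
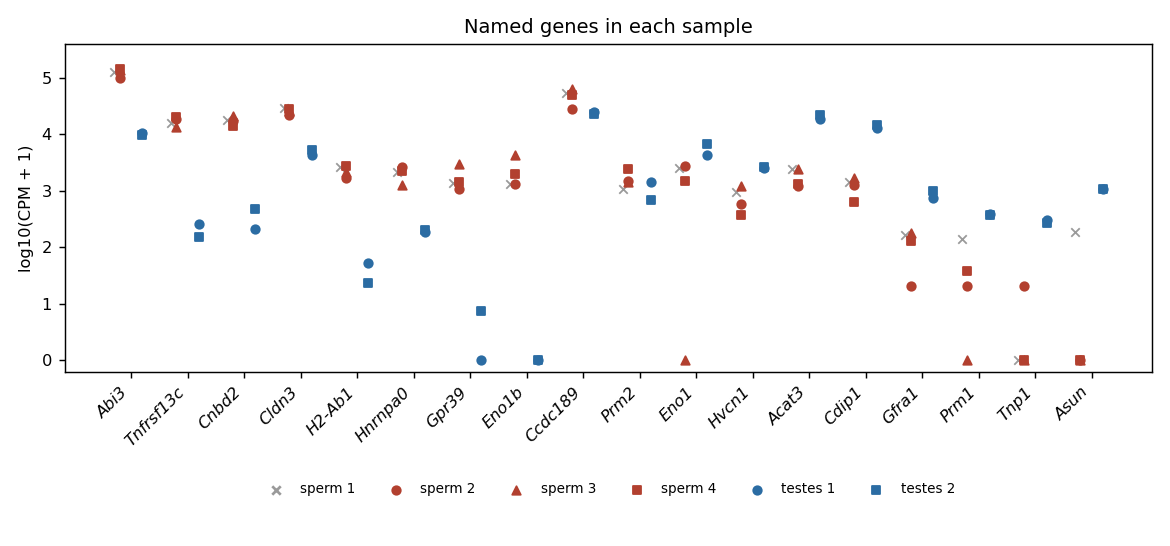
Level of 18 named genes in each control sample as log10(CPM + 1), with sperm pools in red, testes samples in blue and sperm pool 1, which was not used, as a grey cross. Abi3, Tnfrsf13c and Cnbd2 lie high in every pool, Prm2 and Ccdc189 lie close in both tissues, and Eno1, Prm1 and Tnp1 fall to 0 in sperm pool 3.

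Among the chromatin proteins of spermatids, the calls were lower in sperm, and Prm2 was not called. The called genes, Prm1 and Tnp1, passed the filter only through testes and could be called only as lower. Of 10 such genes, 5 were tested and 2 were lower in sperm, none higher, where 11.5% and 4.50% of all genes tested were, with a median log2 fold change of -2.62 beside -0.75 for all genes tested. Prm1, protamine 1, had 2, 0 and 2 counts in sperm pools 2, 3 and 4 and 123 and 116 in testes, a log2 fold change of -4.63 (SE 1.15, adjusted p = 0.040). Tnp1, transition protein 1, had 2, 0 and 0 counts in sperm and 98 and 86 in testes, a log2 fold change of -5.25 (SE 1.36, adjusted p = 0.042). Prm2, protamine 2, was the most abundant of the list, at 1480, 1462 and 2392 CPM in sperm and 1441 and 700 CPM in testes. For Prm2 the lowest sperm pool lay just above the higher testes sample, the log2 fold change of 0.15 (SE 0.64) did not pass (adjusted p = 0.87), and its sign turned to -0.23 with DESeq2 size factors. Tnp2 had a log2 fold change of -2.25 (adjusted p = 0.22). Prm1, Prm2, Tnp1 and Tnp2 have no annotated gene on the opposite strand. The whole list took 0.183, 0.209 and 0.254% of coding counts in sperm and 0.291 and 0.208% in testes, so that these ranges overlapped.

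Few genes of the sperm organelles could be tested, and those called with 3 pools were lower in sperm. Among them, Crisp2, Actl7b and Ift140 passed the filter only through testes, so no other direction was open to them. Of 30 acrosome and egg-binding genes found, 3 were tested and 2 were lower, beside 11.5% of all genes tested. Crisp2, a protein of the acrosome and tail that takes part in gamete fusion, had 0 counts in every sperm pool and 40 and 90 in testes, at least 12.8-fold lower. Actl7b, an actin-like protein of spermatids, had 1, 0 and 0 counts against 41 and 35, a log2 fold change of -4.84 that passed narrowly (adjusted p = 0.0496). Acrbp, which packs proacrosin, had a log2 fold change of -2.98 that did not pass (adjusted p = 0.12) and passed without sperm pool 3 (-2.10, adjusted p = 0.038). Dcst1, a sperm membrane protein needed for fertilisation, was not tested with 3 pools and was higher without sperm pool 3 (4.09, adjusted p = 1.9e-04). Of 20 ion channels and transporters found, 2 were tested and Hvcn1, the voltage-gated proton channel of sperm, fell by 2.63 (SE 0.55, adjusted p = 0.026) from 2576 and 2660 CPM in testes to 580, 1223 and 368 CPM in sperm. Of 51 axoneme and intraflagellar transport genes found, 6 were tested and 1 was called, Ift140, a retrograde transport subunit at least 9.55-fold lower in sperm. Dnah8, a dynein heavy chain of the sperm tail, had a log2 fold change of -4.35 (adjusted p = 0.061). Without sperm pool 3, 15 axoneme genes were tested, 9 were lower and 1 higher, in a fit where 26.4% of all genes were lower and 20.6% higher. Of 19 fibrous sheath and outer dense fibre genes, only Odf2 was tested, with -1.17 (adjusted p = 0.28), and Akap4, the main protein of the fibrous sheath, had 0, 1 and 0 counts in sperm against 23 and 29 in testes.

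Kinases and energy genes gave few calls. None of the 2 testis-specific serine kinases tested of 10 was called. Tssk6, needed for histone removal in spermatids, stood at 300, 2357 and 497 CPM in sperm and 74.4 and 92.3 CPM in testes, with a log2 fold change of 2.61 (SE 0.90, adjusted p = 0.077) that passed without sperm pool 3 (2.24, adjusted p = 0.0040). Tssk1 had 0.66 (adjusted p = 0.52) and also passed without that pool (1.42, adjusted p = 0.0043). Of 25 sperm glycolysis genes, 5 were tested and none called. Their summed share was 0.365, 0.0746 and 0.183% of coding counts in sperm against 0.564 and 0.842% in testes, and without sperm pool 3, 6 of 9 tested were lower (26.4% of all genes in that fit), among them Ldhc, the testis lactate dehydrogenase (adjusted p = 0.0072). The 76 genes of oxidative phosphorylation took 1.95, 2.89 and 2.52% of coding counts in sperm and 0.895 and 1.08% in testes, most of it Ndufa13. That gene alone stood at 17925, 27931 and 24164 CPM in sperm and 7585 and 8964 CPM in testes. The higher share in sperm was thus that of 1 gene and not of the list. None of 5 tested was called. Atp5f1, a subunit of the ATP synthase, had a log2 fold change of 1.76 (adjusted p = 0.13), and Uqcrc2, of complex III, had -4.41 (adjusted p = 0.069).

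Of the lists for earlier germ cells and dividing cells, few genes were tested, and both calls were lower in sperm. Among all genes tested, 11.5% were lower. Ccna2, 1 of the calls, passed the filter only through testes. Of 21 spermatogonial genes, which took 0.0209 to 0.0460% of coding counts in sperm and 0.197 and 0.252% in testes, 3 were tested and 1 was called. Gfra1, the GDNF co-receptor of stem spermatogonia, stood at 20.0, 179 and 129 CPM in sperm and 750 and 980 CPM in testes, a log2 fold change of -3.90 (SE 0.83, adjusted p = 0.028), and a lncRNA, Gm10007, lies opposite to it. Dmrtb1, which takes part in the switch from mitosis to meiosis, had -4.08 (adjusted p = 0.090) and passed without sperm pool 3 (-3.23, adjusted p = 9.2e-04). Of 32 meiotic axis and recombination genes, 22 were at 0 in all 3 sperm pools and 1 was tested, Meioc, a regulator of the extended meiotic prophase, with -2.43 (adjusted p = 0.19). Of 23 piRNA pathway genes, 4 were tested and none was called. Of 37 cell cycle genes, 6 were tested and Ccna2, the mitotic cyclin A2, fell by 5.39 (SE 1.32, adjusted p = 0.039), with 3, 0 and 0 counts in sperm and 104 and 185 in testes.

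The few calls in the lists for splicing and germ-cell RNA binding were higher in sperm with 3 pools. Srsf9 and Cpeb2 passed the filter only through sperm, so no fall could be called for them. Of 60 splicing factors and hnRNPs, 15 were tested, 2 were higher and none lower, where 4.50% and 11.5% of all genes tested were. Their median log2 fold change was 0.73 beside -0.75 for all genes tested. Hnrnpa0, an RNA-binding protein of AU-rich messages, stood at 2659, 1253 and 2282 CPM in sperm and 186 and 200 CPM in testes, a log2 fold change of 2.95 (SE 0.81, adjusted p = 0.043). Srsf9, an SR splicing factor, rose by 4.56 (SE 1.13, adjusted p = 0.040). The sperm and testes samples did not overlap for these genes. The whole list took 1.09, 0.969 and 0.993% of coding counts in sperm and 0.461 and 0.484% in testes, and without sperm pool 3, 8 of its 20 tested members were higher and 3 lower (20.6% and 26.4% of all genes in that fit), Hnrnpu among the higher ones (2.99, adjusted p = 1.1e-09). Of 35 germ-cell RNA binding and storage genes, 9 were tested and Cpeb2, which regulates polyadenylation and translation, rose by 4.34 (SE 1.09, adjusted p = 0.040). Ybx2, the germ-cell Y-box protein that stores messages in spermatids, had -1.43 (adjusted p = 0.26). In the fit without sperm pool 3, 16 genes of this list were tested, 4 were higher and 4 lower. Their median there was -0.41 beside -0.46 for all genes. In the list of other spermatid differentiation genes, calls went both ways. Ggn, gametogenetin, rose by 3.27 (SE 0.89, adjusted p = 0.043), and Crisp2 of that list was lower.

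Translation factors held 3 calls in both directions, and the chaperone, chromatin and proteasome lists held 1 call each, all lower in sperm. Each of these called genes passed the filter through only 1 tissue, so only its observed direction could be called. Calls higher and lower made up 4.50% and 11.5% of all genes tested, whose median log2 fold change was -0.75. The single lower calls of the chaperone, chromatin and proteasome lists were a smaller share than that 11.5%. Of 51 translation factors found, 11 were tested, with a median log2 fold change of -2.11. Eif6, which keeps ribosomal subunits apart, rose by 4.12 (SE 1.02, adjusted p = 0.040), whereas the elongation factor subunit Eef1d fell by 5.57 (SE 1.42, adjusted p = 0.041) and Eif5a2, an eIF5A paralog, fell by 5.25 (SE 1.42, adjusted p = 0.043). Of 83 ribosomal protein genes, 9 were tested and none was called, with a median of -1.17. Rpl28 came nearest, with -4.10 (adjusted p = 0.0501), and Rps12 had 2.66 (adjusted p = 0.066). Both passed without sperm pool 3, in opposite directions (-3.22, adjusted p = 4.4e-04, and 3.39, adjusted p = 4.8e-09). Ribosomal protein genes have many processed copies in the genome, so their counts are uncertain. Of 44 chaperone genes, 13 were tested with a median of -1.97, and Hsp90aa1, an inducible HSP90, fell by 5.79 (SE 1.16, adjusted p = 0.023), with 3, 0 and 1 counts in sperm and 106 and 406 in testes. Of 62 chromatin-modifying enzymes and readers, 15 were tested with a median of -1.57, and Brd8, a subunit of the NuA4 acetyltransferase complex, fell by 6.22 (SE 1.24, adjusted p = 0.023). Of 58 proteasome and ubiquitin genes, 12 were tested and only Usp14 was called. The lists for antioxidant genes, histones, DNA repair and spermatid transcription regulators held no call among the 5, 3, 6 and 5 genes tested.

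**Figure D5:**
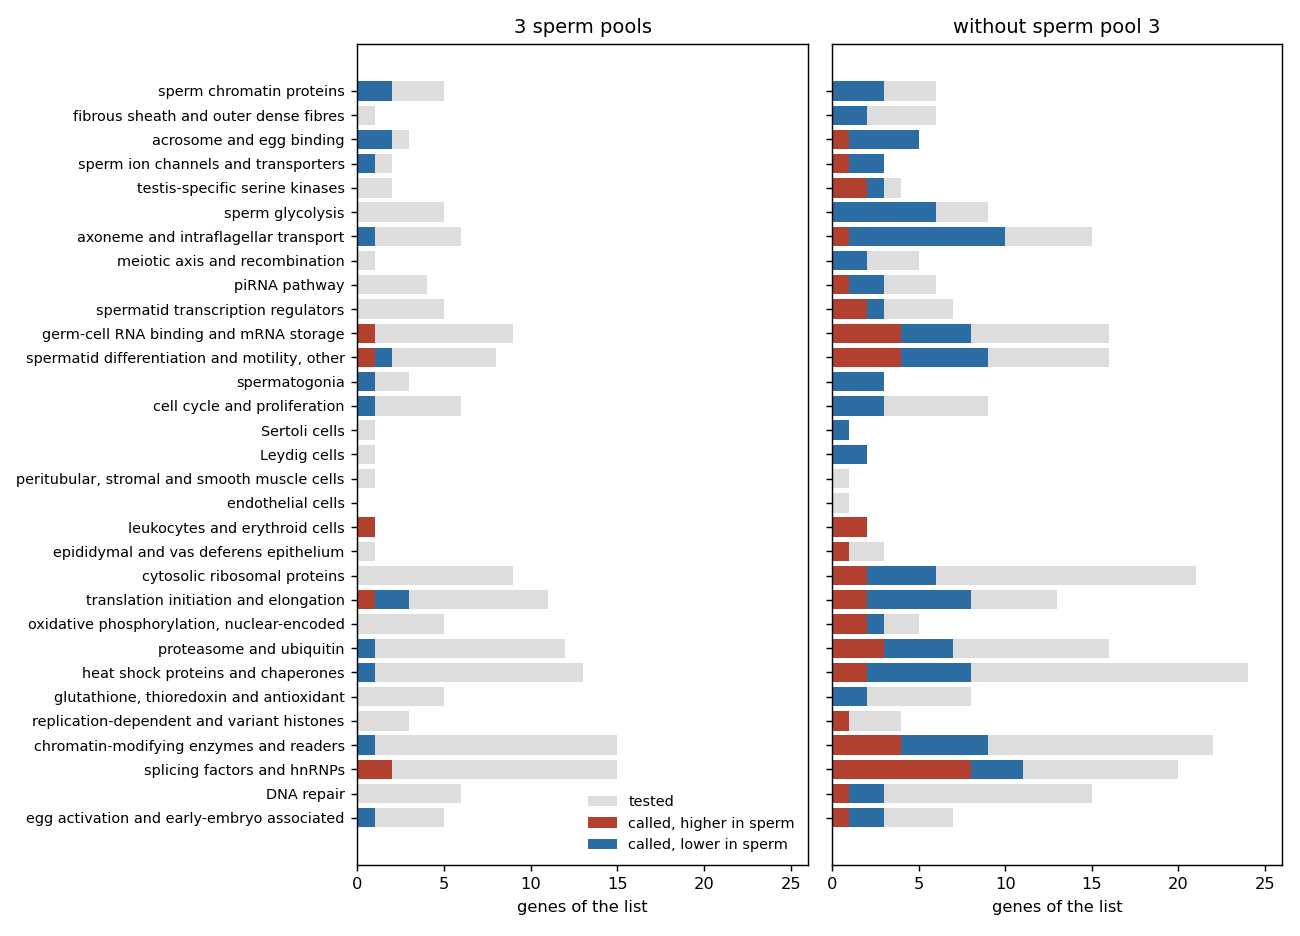
Number of genes tested (grey) and called higher (red) or lower (blue) in sperm for each of 31 gene lists, with 3 sperm pools on the left and without sperm pool 3 on the right. Most lists hold 0 to 2 calls on the left, and splicing factors hold 2 higher calls there and 8 on the right.

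Somatic cell types of the testis and epididymis contributed few tested genes. Of the Sertoli and Leydig lists, with 27 and 20 genes found, 1 gene each was tested. Dhh, the Sertoli cell hedgehog ligand, had 9, 0 and 0 counts in sperm against 93 and 111 in testes and a log2 fold change of -3.42 (adjusted p = 0.12). Star, which carries cholesterol into mitochondria for steroid synthesis, had 16, 40 and 6 counts against 168 and 148 and a log2 fold change of -1.11 (adjusted p = 0.39). Its level in sperm pool 3, 1194 CPM, was above both testes samples. Dhh and Star both passed as lower without sperm pool 3, at -2.54 (adjusted p = 0.0049) and -1.80 (adjusted p = 0.011). In that fit 26.4% of all genes were lower. The only call of the leukocyte and erythroid list was H2-Ab1, the beta chain of a class II histocompatibility antigen, which stood at 1720, 2178 and 2742 CPM in sperm and 52.7 and 22.3 CPM in testes, a log2 fold change of 5.24 (SE 0.82, adjusted p = 0.012). Beside it, the 10 leukocyte markers summed to 40.0, 0 and 73.6 CPM in sperm and 58.9 and 31.8 CPM in testes, with 3, 0 and 1 of them above 0 in the sperm pools. Ptprc and Cd3e were at 0 in sperm and in testes alike. C1qb, a complement subunit made by macrophages, stood at 80.0, 0 and 129 CPM in sperm and 27.9 and 22.3 CPM in testes. It was not tested with 3 pools and was higher without sperm pool 3 (2.02, adjusted p = 0.0496). The part of other cells in these values was not tested. Of 39 epididymal and vas deferens genes found, Akr1b7, an aldo-keto reductase abundant in the vas deferens, was the only one tested, with 3.03 (adjusted p = 0.10), and passed without sperm pool 3 (3.59, adjusted p = 0.0020).

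The genes that the study followed by PCR were mostly at a few counts. Celf3, an RNA-binding splicing regulator, had 14, 0 and 9 counts in sperm and 14 and 7 in testes, and its log2 fold change of 1.29 did not pass (adjusted p = 0.53). Catsper2, a subunit of the sperm calcium channel, had 26, 0 and 13 counts against 6 and 12, with 2.21 (adjusted p = 0.34). Both were at 0 in sperm pool 3 and passed without it, at 2.23 (adjusted p = 0.043) and 3.12 (adjusted p = 0.0025). Pcsk4, the proprotein convertase of sperm, had 4, 0 and 6 counts against 3 and 1, and the ribosomal protein gene Rplp1 had 2, 4 and 0 against 14 and 8, so that neither was tested. The beta-actin gene Actb, often used as a reference, had 23, 2 and 11 counts against 17 and 22, with a log2 fold change of 1.01 (adjusted p = 0.55). Of the genes used to look for other cells, Kit, the receptor of differentiating spermatogonia, and Cdh1, E-cadherin, were at 0 in all 5 samples, and the T-cell gene Cd4 had 2, 0 and 0 counts in sperm and 4 and 0 in testes. Kit and Cdh1 were thus not detectable at this depth in testes either, where 3 counts over both samples are 4.71 CPM, and their 0 in sperm does not separate the tissues.

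The same comparison in the cadmium arm, which shares no library with the control samples, gave the same directions. There, 2047 of 3476 genes were called (58.9%), 1023 higher (29.4%) and 1024 lower (29.5%). Of the 89 genes higher in control sperm, all 89 were tested and called higher in the cadmium pair. Of the 227 lower ones, 226 were tested, all 226 had a log2 fold change below 0 and 215 were called. Abi3 had a log2 fold change of 3.66, Tnfrsf13c of 6.62, Acat3 of -3.74 and Prm1 of -2.37 in that pair, all called. When the difference between the arms was itself tested in 1 model of 9 samples, edgeR called 0 of 3431 genes (0.00%), with 93 at an unadjusted p under 0.05. The power of that test was not measured, so 0 calls do not show that the arms were alike. Even in the main comparison, 0% of simulated 4-fold changes were recovered at the dispersion of the data.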

How the data were processed

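RNA was sequenced from 4 control sperm pools and 2 control testes samples, beside 2 sperm and 2 testes samples of cadmium-treated mice, after rRNA removal with RNase H. Groups were taken from the sample labels. The submitters' processing notes name HISAT and mm10, whereas the study's methods name SOAPaligner/SOAP2, and the tool that gave the expected counts and its strand setting are not given in the sources used here. The deposited expected counts are estimates per transcript, not normalized, and 11.8 to 24.7% of the control values were not whole numbers. The deposited FPKM were divided by transcript length and library size upstream.

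Known coding transcripts (NM accessions) were summed per gene name, a transcript not listed was taken as 0, and sums were rounded. Differences were tested by edgeR 4.0.16 (R 4.3.3) with its quasi-likelihood F test, TMM normalization and filterByExpr by group, over 3 sperm pools and 2 testes samples, and a call asked for over 2-fold change and a p below 0.05 after Benjamini-Hochberg adjustment. The standard error is the log2 fold change divided by the square root of F, and is not a spread between samples. P-values measure only the spread between these samples. DESeq2 1.42.0 and limma 3.58.1 were alternatives. Single values were compared with exact permutation tests, two-sided. Thinned values are means over 20 draws. Wilson intervals and limits of 3 counts cover counting error only. Of 16063 genes, 16008 matched RefSeq, and the overlap status was known for 12175 of them.

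Counts were simulated for 1976 genes of this comparison, with changes placed only in 200 genes above the median level. With the dispersion of the data, 70.5% of 16-fold changes and 0% of 4-fold changes were recovered. At low dispersion, 99.5% of 4-fold changes were.

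Named genes were those the study followed by PCR, the 10 largest rises and falls among called genes of at least 50 counts without overlap, the 10 highest by mean FPKM in each tissue, and in each of 31 lists the highest 4 and the most changed 2 members. The members, lists and rules were chosen with earlier results of these data known. The restriction to genes with no opposite-strand partner, the thinned share of the 10 highest genes, the enolase sum and the named overlapping pairs were added after the data were seen.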

Additional observations from a re-analysis of the deposited data

Results flagged for a closer look

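For each named gene, the 4 sperm pools, sperm pool 1 included, were searched for a pool far from the rest by Dixon's test, which flags about 1 group in 20 by chance. Of 90 groups of values tested, 21 were singled out, and in each the highest pool was the one apart. In most of them the other pools were at 0, so a few counts decided the flag.

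Sperm pool 3 was the high pool for 5 genes, with 1164 CPM of Proser1, 2357 CPM of Tssk6, 119 CPM of Rplp1, 29.8 CPM of Akap4 and 1194 CPM of Star. Sperm pool 1 was the high pool for 4 genes called lower in sperm, with 189 CPM of Asun, 23.6 CPM of AI464131, 536 CPM of Adam1b and 118 CPM of Gm7120. Sperm pool 2, the deepest, was the high pool for 20.0 CPM of Cd4, 20.0 CPM of Tnp1, 10.00 CPM of Actl7b, 50.0 CPM of Dnah8, 30.0 CPM of Ccna2, 21.1 CPM of Brd8, 10.1 CPM of Eef1d, 10.00 CPM of Eif5a2 and 9 counts of Dhh, or 90.0 CPM. Sperm pool 4 was the high pool for 92.0 CPM of Dmrtb1, 73.6 CPM of Ldhc and 129 CPM of Uqcrc2. The part of depth in these values was not tested.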

How the results depend on the processing

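The number of called genes, 316 (89 higher and 227 lower in sperm), depended on the setting. The direction of each of these genes did not in any setting that tested it. That direction was nearly fixed, since the sperm and testes samples did not overlap for 315 of the 316. The number of calls was 687 (139 and 548) with DESeq2 size factors and 607 (244 and 363) with total library size. It was 788 (200 and 588) with the DESeq2 Wald test and 650 (218 and 432) with limma on log2(FPKM + 1). It was 381 (165 and 216) with limma and a pseudocount of 0.1, 231 (32 and 199) with no filter beyond 1 count, 1214 (167 and 1047) with a filter of 1 FPKM in 2 samples and 309 (161 and 148) on thinned counts, where fewer genes could be tested. With no opposite-strand gene it was 75 (15 and 60), of fewer genes. The 4 sperm pools together gave 328. Leaving out each sample in turn gave 0 (without sperm pool 4) to 1455 (without sperm pool 3) calls, 0 to 637 higher and 0 to 818 lower. With 1 testes sample left, which was assumed to vary like the sperm pools, the calls were 136 without testes sample 1 and 116 without testes sample 2, and without sperm pool 2 they were 837. The causes were not tested.

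Gene lists with more members lower than higher numbered 11 in the main setting, 19 with DESeq2 size factors, 19 with the DESeq2 Wald test, 27 with the FPKM filter, 5 on thinned counts, 5 with no opposite-strand gene and 0 to 25 with a sample left out (0 without sperm pool 4, 25 without sperm pool 2). The differences in coding share, in the share of the 10 highest genes and in the number of genes at equal depth kept their sign throughout. The difference between the arms stayed at 0 calls in the 3 settings run, which does not show that the arms were alike.

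The 3 kept pools share only number 2 with the testes samples, so a replicate block needed all 4 pools, and the labels tie no sperm number to a testes number. With the replicate block 246 genes were called (79 and 167).

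Genes that were not called and changed sign were Ccdc189, to -0.076 with DESeq2 size factors and with the Wald test, -0.16 without the filter and -0.011 with the replicate block; Prm2, to -0.23 with both DESeq2 settings, -0.21 without the filter, -0.14 with 4 pools, -0.38 with the replicate block and -0.29 with no opposite-strand gene, and between -0.042 and 0.90 with a sample left out; Actb, to -0.57 with the replicate block; Celf3, to -0.072 with limma and the smaller pseudocount; and Cd72, between -0.88 and 0.033 with a sample left out. Most members of the lists had too few counts to be tested.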
